A study of Mus musculus with 11 samples.

Results

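The vessels of the hypothalamus of male mouse offspring were examined here through 10 genes of the blood-brain barrier: 4 genes of endothelial cell junctions (Cldn5, Ocln, Cdh5, Pecam1), 2 transporters of the luminal membrane (Slco1a4, Abcb1a), 3 receptor tyrosine kinases of endothelium (Flt1, Kdr, Tek) and Pdgfrb, the receptor that marks pericytes. They were chosen by name, out of 19987 genes named on the arrays, and every mouse probe whose accession belonged to one of them was taken, which gave 12 probes. All 12 were well above background on all 11 arrays, so no member was lost to a filter on dim signals.

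RNA came from hypothalamic tissue of C57BL/6N males at postnatal day 21 (P21). The mothers were fed standard chow in the group named CO here (labelled SD, 5 samples) or a high-fat diet in the group HFD (6 samples), in both cases from weeks before mating through gestation and lactation, so that the pups were exposed through the mother and up to weaning age. The tissue was not sorted, no allele was altered in either group, and up to a pair of pups could come from the same dam, while the labels do not name the dam or say whether a sample was a single animal. The titles of CO replicates 1 to 3 share a leading number and those of CO replicates 4 and 5 another, whose meaning is not stated. With that number as a random block, a choice made after the data were seen, the members' calls were the same 5 higher and 3 lower. The p-values therefore measure the spread between these samples, which may share litters. Each sample was measured on 1 Agilent array with 1 dye.

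The blood-brain barrier is formed by endothelial cells that are sealed to each other by tight and adherens junctions and that carry uptake carriers and efflux pumps in their membranes. Pericytes lie on the outer side of these capillaries, are recruited by endothelial PDGF-B acting on Pdgfrb, and are needed for the barrier to form. Growth and stability of the vessels are governed by VEGF, which binds Flt1 and Kdr, and by the angiopoietins, which bind Tek. Parts of the hypothalamus near the median eminence hold vessels with a leaky, fenestrated wall, so that bulk tissue mixes both kinds of vessel. In bulk tissue, fewer cells of a type and less RNA per cell cannot be told apart.

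The levels below are log2 of the processed signal minus the 75th percentile of the mouse spots of the same array, so that 0 is a signal equal to that percentile and a difference of 1 is a doubling. The percentile itself lay between 2216 and 2932 signal units on the CO arrays and between 3135 and 3447 on the HFD arrays, and 82.5 to 85.7% of mouse spots on CO arrays but 71.8 to 77.4% on HFD arrays were well above background. CO and HFD arrays were scanned in separate sessions 337 days apart and lay on different slides, so session, slide and maternal diet cannot be told apart in any difference given here. No value within a session can be given, since each session held samples of 1 group.

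On this scale, 5 of the 10 genes were higher in HFD (Slco1a4, Cdh5, Abcb1a, Pdgfrb and Flt1), 3 were lower (Kdr by its brightest probe, Pecam1 and Cldn5) and 2, Ocln and Tek, did not pass an adjusted p of 0.05, while under scaling to spike-in probes none was higher, as described further on. Of all 17189 genes tested, 66.4% passed the same threshold, 22.2% as higher and 44.1% as lower, so the 8 of 10 members stand against a background in which most genes passed. The median log2 difference of the 10 genes was 0.15, against -0.17 over all genes tested. No member passed the threshold with a difference of at least 2-fold. The 12 probes were split into 5 higher, 3 lower and 4 past neither, against 67.1% of 31796 probes that passed, 23.5% higher and 43.6% lower. In 5 probes all HFD arrays lay above all CO arrays and in 2 they lay below, beside 17.4% and 30.6% of all probes (48.0% together). The junction genes and the VEGF receptors each had members that differed in opposite directions.

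**Figure D1:**
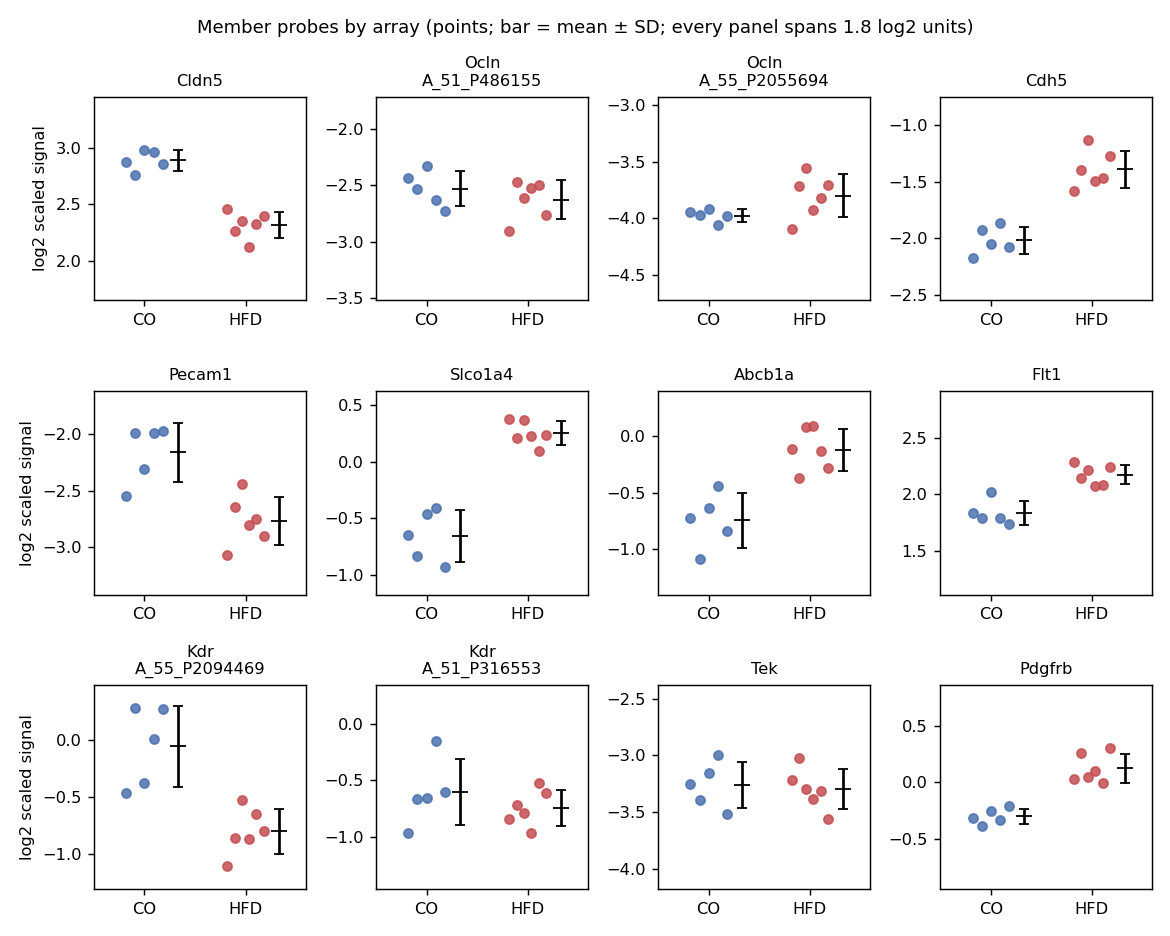
The 12 member probes by array, with log2 signal relative to the array's 75th percentile on the vertical axis and 1 panel per probe, each spanning the same number of log2 units; points are arrays (5 CO, 6 HFD) and bars give the mean ± SD. The HFD points lie wholly above the CO points for Cdh5, Slco1a4, Abcb1a, Flt1 and Pdgfrb, wholly below them for Cldn5 and 1 of the 2 Kdr probes, and overlap in the other panels; on the scale of the spike-in probes only Slco1a4 keeps a positive difference.

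Cldn5 encodes claudin-5, the main claudin of brain endothelium and the strand protein that closes the barrier to small solutes. Its level was 2.88, 2.76, 2.98, 2.96 and 2.85 in the 5 CO samples, and in HFD it ran from 2.12 over a median of 2.34 to 2.46. Every HFD sample was below every CO sample. The difference was -0.57 ± 0.072 (log2, SE), with a 95% confidence interval from -0.73 to -0.41, or 1.48-fold lower in HFD (limma, adjusted p = 3.5e-05). Without scaling between arrays the signals overlapped, at 16023 to 22862 units in CO and 14350 to 17900 in HFD. Leaving out any array kept the difference between -0.60 and -0.53.

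The window around the start of Cldn5 is printed because endothelial genes are commonly driven by ETS factors, whose core is GGAA (TTCC on the other strand), and Cldn5 was the only member with a promoter in the table used here that held no such core. RefSeq promoters of GRCm38.p6, from 250 bases before to 50 after the start, were matched for 7 of the 10 members, with 2 windows for Ocln. Among 32851 promoters of that length 96.0% held at least 1 core on either strand, with a median of 3, so that a match carries little information. The window of Cldn5 lies at chr16:18776597-18776896 on the plus strand, is 58.3% G and C against a median of 52.7% over all promoters, and is printed in lower case throughout, since capitals mark the ETS core here and below.
Cldn5: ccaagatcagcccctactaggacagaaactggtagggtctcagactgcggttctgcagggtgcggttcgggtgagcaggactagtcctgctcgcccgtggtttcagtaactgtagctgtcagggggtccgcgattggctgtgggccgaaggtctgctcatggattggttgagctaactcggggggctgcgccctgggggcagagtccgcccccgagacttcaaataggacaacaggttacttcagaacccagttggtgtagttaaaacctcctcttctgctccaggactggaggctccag

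Cdh5 encodes VE-cadherin, the adherens junction protein that holds endothelial cells together and that restrains their growth. Its level was -2.17, -1.93, -2.05, -1.87 and -2.08 in CO, and -1.58 to -1.13 with a median of -1.43 in HFD. All HFD samples were above all CO samples, opposite to Cldn5. The difference was 0.63 ± 0.091 (SE; 95% confidence interval 0.43 to 0.82), or 1.54-fold higher in HFD (limma, adjusted p = 9.8e-05).

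Pecam1, an adhesion molecule of endothelium that platelets and leukocytes carry as well, was lower in HFD. Its CO levels were -2.55, -1.99, -2.31, -1.99 and -1.97, and its HFD levels ran from -3.07 over a median of -2.78 to -2.44. The groups overlapped, because CO replicate 1 was below the highest HFD sample. The difference was -0.61 ± 0.13 (SE; 95% confidence interval -0.90 to -0.31), or 1.52-fold lower (limma, adjusted p = 0.00188). With the normexp background correction in place of the scanner software's own, it was -0.44 and did not pass (adjusted p = 0.119).

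Ocln encodes occludin, a tight junction protein that is found in brain endothelium and in epithelia. The brighter of its 2 probes read -2.44, -2.53, -2.33, -2.63 and -2.73 in CO and -2.90 to -2.47 with a median of -2.57 in HFD, a difference of -0.10 with an interval from -0.31 to 0.12 (adjusted p = 0.401). The dimmer probe read -3.94, -3.97, -3.92, -4.06 and -3.98 in CO and -4.09 to -3.56 with a median of -3.77 in HFD, a difference of 0.17 with an interval from -0.02 to 0.37 (adjusted p = 0.108). Both probes overlapped between the groups, and their estimates had opposite signs. The dimmer probe passed the threshold without HFD replicate 1, its lowest sample (0.23, adjusted p = 0.0187), and under quantile normalization (0.30, adjusted p = 0.00799) or scaling to the array median (0.23, adjusted p = 0.0351), while under scaling to spike-in probes both probes passed as lower (-0.77, adjusted p = 8.6e-05, and -0.50, adjusted p = 0.000686), so no direction can be given for Ocln.

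Slco1a4 and Abcb1a stand for the transport side of the barrier. Slco1a4 encodes Oatp1a4, a carrier that takes up organic anions, steroid conjugates and drugs, and is a marker of brain capillaries. Its level was -0.65, -0.83, -0.46, -0.41 and -0.93 in CO, and 0.09 to 0.38 with a median of 0.23 in HFD. The groups lay far apart, with every CO sample below and every HFD sample above the 75th percentile of its array. The difference, 0.91 ± 0.10 (SE; 95% confidence interval 0.68 to 1.13), was the largest among the members in size, or 1.88-fold higher in HFD (limma, adjusted p = 1.5e-05), and 93.6% of all genes had a lower difference. The unscaled signals were 1615 ± 393 units in CO and 3905 ± 288 in HFD (SD, n = 5 and 6). Such units are not comparable between the groups. The unscaled log2 signal of the spike-in probes was itself 12.3 to 12.7 on CO arrays and 13.5 to 13.7 on HFD arrays.

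Abcb1a encodes P-glycoprotein, the efflux pump that returns many drugs from endothelium to blood. Its level was -0.73, -1.09, -0.63, -0.44 and -0.84 in CO, and -0.37 to 0.09 with a median of -0.13 in HFD. The groups did not overlap, although the highest CO sample, replicate 4, came near the lowest HFD sample, replicate 2. The difference was 0.62 ± 0.12 (SE; 95% confidence interval 0.35 to 0.89), or 1.54-fold higher (limma, adjusted p = 0.000907). Within the groups, Slco1a4 and Abcb1a also varied together over the 11 arrays (Pearson r = 0.67, Spearman rho = 0.70 on values centred on the group means, and r = 0.61 without the 2 arrays farthest from the median of Slco1a4), which is a description only, since the arrays share scanning and scaling.

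The promoter windows of the 2 transporters are shown together because both genes were higher. Slco1a4 lies at chr6:141856171-141856470 on the minus strand and Abcb1a at chr5:8566841-8567140 on the plus strand. Each window held 5 ETS cores (capitals), more than 71.4% of all promoters did, and both were poor in G and C, with 40.7% and 40.3%. No factor's binding was measured in these samples.
Slco1a4: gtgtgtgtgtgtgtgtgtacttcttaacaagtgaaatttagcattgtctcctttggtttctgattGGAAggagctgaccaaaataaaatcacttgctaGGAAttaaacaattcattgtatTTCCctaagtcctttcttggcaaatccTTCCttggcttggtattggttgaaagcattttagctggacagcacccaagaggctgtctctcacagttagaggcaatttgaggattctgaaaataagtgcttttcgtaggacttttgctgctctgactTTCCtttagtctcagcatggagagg
Abcb1a: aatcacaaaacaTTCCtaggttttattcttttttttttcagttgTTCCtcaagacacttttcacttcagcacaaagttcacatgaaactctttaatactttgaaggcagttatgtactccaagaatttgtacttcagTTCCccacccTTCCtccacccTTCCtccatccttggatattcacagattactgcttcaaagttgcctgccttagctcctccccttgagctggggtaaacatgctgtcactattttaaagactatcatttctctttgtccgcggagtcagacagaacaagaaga

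Flt1 encodes VEGF receptor 1, which binds VEGF tightly, signals weakly and limits the VEGF that reaches Kdr. Its level was 1.83, 1.79, 2.02, 1.79 and 1.74 in CO, and 2.07 to 2.29 with a median of 2.18 in HFD. The groups did not overlap, with CO replicate 3 just below the lowest HFD sample. The difference was 0.34 ± 0.068 (SE; 95% confidence interval 0.19 to 0.49), or 1.26-fold higher in HFD (limma, adjusted p = 0.00101), the smallest of the 8 that passed.

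Kdr encodes VEGF receptor 2, through which VEGF drives endothelial growth and permeability, and its 2 probes gave different answers. The brighter probe, A_55_P2094469, is printed in 1 spot per array. It read -0.46, 0.28, -0.38, 0.01 and 0.28 in CO and -1.11 to -0.53 with a median of -0.83 in HFD, with no overlap but with CO replicates 1 and 3 close to the highest HFD sample. Its difference was -0.75 ± 0.16 (SE; 95% confidence interval -1.10 to -0.41), or 1.68-fold lower in HFD (limma, adjusted p = 0.00131).

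The other Kdr probe, A_51_P316553, is printed in 10 spots per array, and the log2 signals of these spots had an SD of 0.024 to 0.085 within an array. It read -0.96, -0.66, -0.65, -0.15 and -0.60 in CO and -0.97 to -0.53 with a median of -0.75 in HFD, so that the groups overlapped. The difference was -0.14, with an interval from -0.42 to 0.15 (adjusted p = 0.375). The gap between the brighter and the other probe was 0.55 ± 0.35 in CO and -0.06 ± 0.20 in HFD (SD), with the groups overlapping, and after centring on the groups the probes correlated with r = 0.42 over 11 arrays. With the mean of both probes the difference of Kdr was -0.44 (adjusted p = 0.00705, over genes). On the scale of the 75th percentile, a lower Kdr in HFD thus rests on the single-spot probe, while under scaling to spike-in probes the 10-spot probe passed as lower as well (-0.81, adjusted p = 0.000471). Under the normexp correction the single-spot probe gave -0.50 (adjusted p = 0.0567 over probes and 0.0455 over genes).

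The windows of the VEGF receptors are printed because these genes, which share a ligand, differed in opposite directions by their brightest probes. Flt1 lies at chr5:147725962-147726261 and Kdr at chr5:75978406-75978705, both on the minus strand. They held 4 and 5 ETS cores (capitals) and were richer in G and C than the transporters, with 70.7% and 60.7%.
Flt1: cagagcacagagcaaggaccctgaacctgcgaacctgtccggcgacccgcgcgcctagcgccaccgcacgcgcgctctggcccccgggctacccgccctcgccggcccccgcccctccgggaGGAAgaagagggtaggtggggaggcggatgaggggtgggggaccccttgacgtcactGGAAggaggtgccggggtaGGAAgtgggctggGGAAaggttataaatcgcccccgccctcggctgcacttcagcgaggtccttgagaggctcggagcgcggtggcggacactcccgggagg
Kdr: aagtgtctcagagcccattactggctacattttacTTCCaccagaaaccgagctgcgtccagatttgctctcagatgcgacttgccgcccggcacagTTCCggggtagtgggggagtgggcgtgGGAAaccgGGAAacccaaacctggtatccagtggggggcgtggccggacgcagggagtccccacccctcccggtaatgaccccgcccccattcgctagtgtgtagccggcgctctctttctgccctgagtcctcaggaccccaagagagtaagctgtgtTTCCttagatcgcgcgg
Both windows, like that of Cldn5 and both windows of Ocln, held a GC box (GGGCGG or CCGCCC), which 35.7% of all promoters hold and which was missing from the windows of Slco1a4, Abcb1a and Tek. The core of the hypoxia response (ACGTG or CACGT) was found in none of the 8 member windows and in 19.6% of all promoters.

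Tek encodes Tie2, the receptor of the angiopoietins, which keeps vessels quiescent when Angpt1 binds it. Its level was -3.25, -3.39, -3.15, -3.002 and -3.51 in CO and -3.56 to -3.03 with a median of -3.31 in HFD. The groups overlapped almost entirely, and the difference was -0.04 with an interval from -0.28 to 0.20 (adjusted p = 0.775). Under scaling to spike-in probes Tek passed as lower (-0.71, adjusted p = 0.000471). Pdgfrb, the PDGF receptor of pericytes, was -0.32, -0.38, -0.26, -0.33 and -0.21 in CO and -0.0042 to 0.30 with a median of 0.07 in HFD. All HFD samples were above all CO samples, with an SD of 0.068 in CO, and the difference was 0.42 ± 0.072 (SE; 95% confidence interval 0.27 to 0.58), or 1.34-fold higher (limma, adjusted p = 0.00031).

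**Figure D2:**
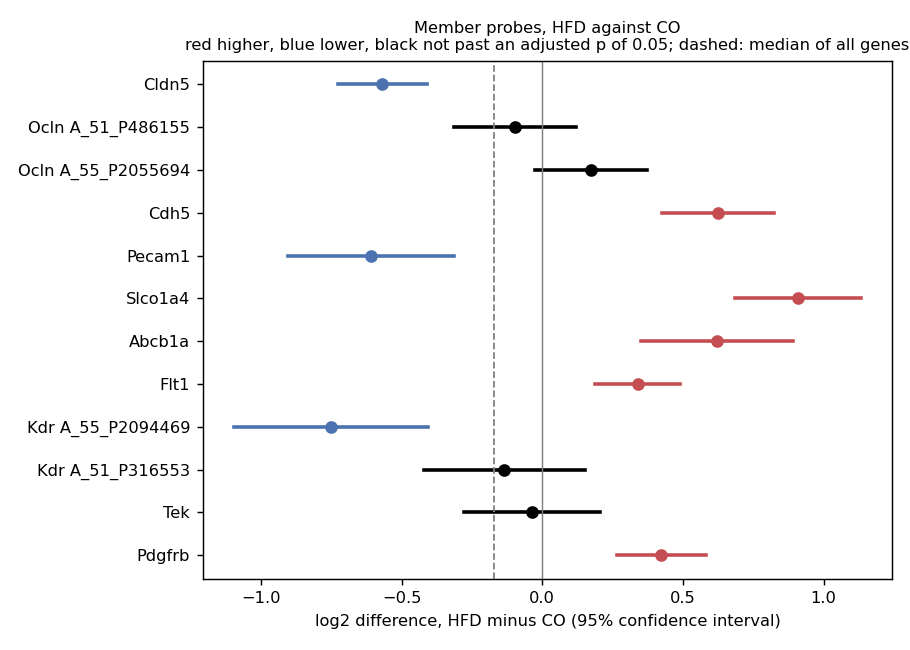
The log2 difference (HFD minus CO, horizontal axis) of each member probe with its 95% confidence interval from limma, with higher calls in red, lower calls in blue and the rest in black, and the median of all genes at -0.17 as a dashed line. The estimates run from -0.75 for the brighter Kdr probe to 0.91 for Slco1a4; on the scale of the spike-in probes every estimate shifts by -0.67, which turns all positive ones but that of Slco1a4.

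A difference between 2 genes of the same array is not changed by any scaling that shifts the whole array by a constant, such as to a percentile, the median or the spike-in probes, so 6 pairs of members were compared in this way by exact permutation over all 462 ways to divide the arrays into 5 and 6 (two-sided, adjusted over the 6 pairs; the smallest p possible is 0.00216). The values are changes in the distance between 2 probes and say nothing of which gene is more abundant. The pairs were chosen with earlier results of these data known. Cdh5 relative to Cldn5 was higher in HFD by 1.19 log2 units (exact p = 0.00216, adjusted p = 0.00433), with SDs of 0.15 in CO and 0.19 in HFD, and the 2 groups lay wholly apart. In HFD, Cdh5 lay wholly above and Cldn5 wholly below CO. The separation of this pair and its p therefore follow from the single genes and add no further test. Pecam1 relative to Cdh5 was lower by 1.23 (HFD minus CO -1.23, exact p = 0.00216, adjusted p = 0.00433), again without overlap. Of these endothelial genes of cell contacts, Cdh5 thus changed unequally with both Cldn5 and Pecam1. Quantile normalization, which is not a constant shift, gave 1.08 and -1.20 for these 2 pairs, with the same adjusted p. Of all single probes, 48.0% separated the groups without overlap. How often pairs of other genes do so was not examined, so such a separation is not shown to be particular to barrier genes.

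Flt1 relative to Kdr was higher in HFD by 1.09 (exact p = 0.00216, adjusted p = 0.00433), without overlap. The separation again follows from the single genes, since their brightest probes separated the groups in opposite directions. With the other Kdr probe, a choice made after the data were seen, the change of Flt1 relative to Kdr was 0.47 (adjusted p = 0.0260). The VEGF receptors thus changed unequally by either probe, though by less with the second. Ocln relative to Cldn5 was higher by 0.47 (exact p = 0.0173, adjusted p = 0.0260), with overlap, and with the normexp correction it no longer passed (0.49, adjusted p = 0.0961). Slco1a4 relative to Abcb1a was higher by 0.29 (exact p = 0.0238, adjusted p = 0.0286), with overlap, and without CO replicate 1, 4 or 5 this did not pass (adjusted p = 0.0571 in each case). Pdgfrb relative to Cdh5 was at -0.20 (exact p = 0.0844, adjusted p = 0.0844), which did not pass and concerns these 2 probes only.

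**Figure D3:**
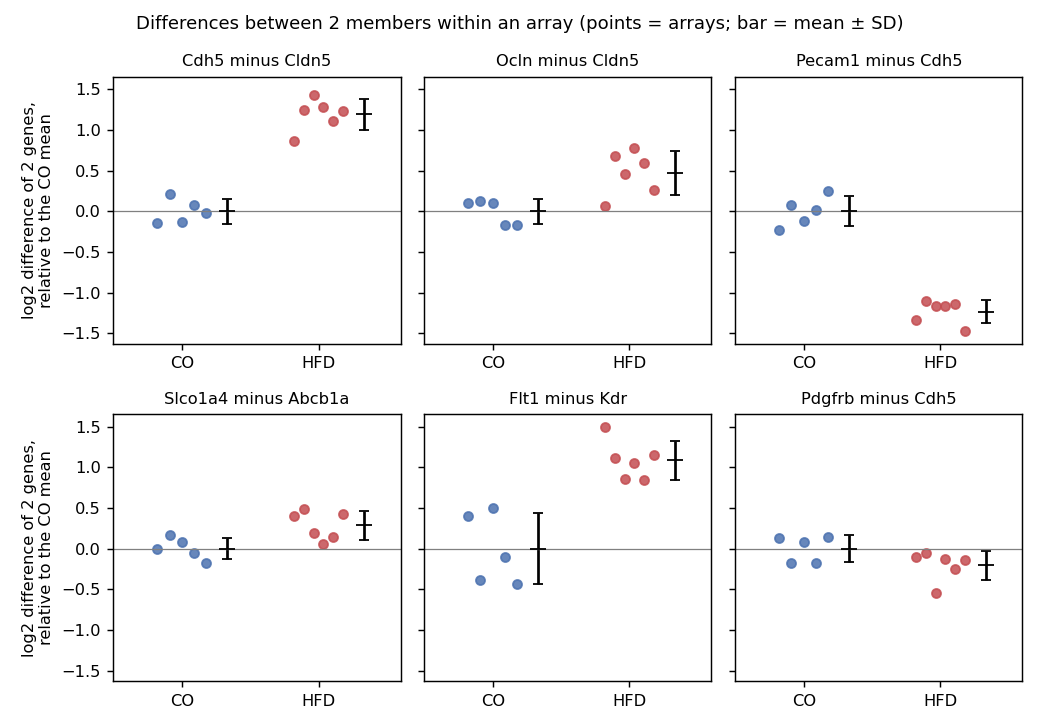
Differences between the brightest probes of 2 members within each array, on the log2 scale and set to a CO mean of 0 (vertical axis); points are arrays (5 CO, 6 HFD) and bars give the mean ± SD. Cdh5 minus Cldn5, Pecam1 minus Cdh5 and Flt1 minus Kdr separate the groups completely, with mean shifts of 1.19, -1.23 and 1.09, and the other 3 pairs overlap. For Cdh5 minus Cldn5 and Flt1 minus Kdr this follows from the single genes, which separate the groups in opposite directions. Of all single probes, 48.0% separate the groups as well, and pairs of other genes were not examined.

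How high a member stands in HFD does depend on the reference. The spike-in probes, which report added RNA, were higher relative to the 75th percentile by 0.67 log2 units on HFD arrays (exact permutation p = 0.00216), so that scaling to the 8 spike-in probes that were well above background on all arrays lowers each difference by that amount. The median difference of all genes then went from -0.17 to -0.84 and the calls over all genes from 3819 higher and 7588 lower to 957 higher and 14361 lower (89.1% called, 5.57% higher). Among the members, none was higher (also none at an unadjusted p under 0.05) and 7 were lower. Slco1a4 was the only member left above 0, at 0.24 (adjusted p = 0.0622), Cdh5 was at -0.045, Abcb1a at -0.049, Pdgfrb at -0.25 and Flt1 at -0.33. Pdgfrb and Flt1, higher on the scale of the 75th percentile, were thus among the 7 lower genes (limma, adjusted p = 0.0484 and 0.0014 over genes). Since the groups were scanned in separate sessions, session and diet cannot be told apart in this shift either. Scaling to the reference genes of the study's RT-qPCR, to the array median or by quantiles kept all 8 calls in their direction. The reference genes themselves were higher relative to the 75th percentile by 0.064 on HFD arrays (exact permutation p = 0.026). Among them, Actb (0.27) and Hprt (0.44) were called higher, Gusb (-0.42) was called lower and Gapdh did not pass.

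The test and the background correction mattered as well. The Rank Product test that the study's methods name, with a percentage of false positives under 0.001 as a share, called no member (limma called 5 and 3 of them, also at an unadjusted p under 0.05) and 4.79% of all genes, 2.71% as higher. Slco1a4 came nearest among the members, at 0.0267. With the normexp correction 38.1% of all genes were called, 15.6% as higher, and the same 5 member genes stayed higher, Slco1a4 by 0.69 and Flt1, the least changed of them, by 0.31 (adjusted p = 0.0190).

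**Figure D4:**
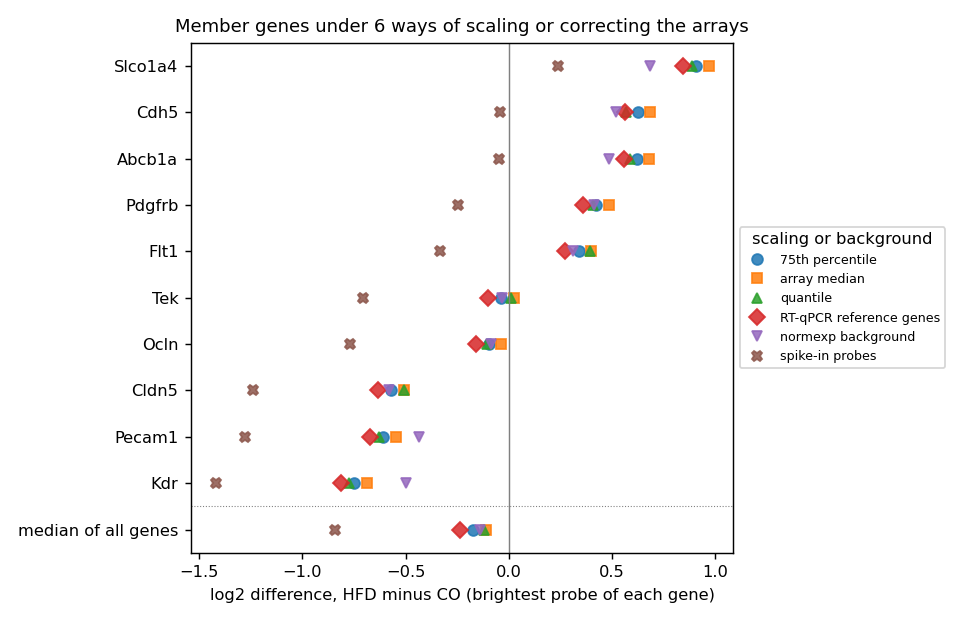
The log2 difference (HFD minus CO) of each member gene by its brightest probe, and of the median gene, under 6 ways of scaling or background correction (symbols). Slco1a4 has the highest difference under each, and scaling to spike-in probes moves all of them and the median gene by -0.67, to between -1.42 for Kdr and 0.24 for Slco1a4.

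Within the groups the 10 genes did not vary as 1 unit. Over the 45 pairs of members, the correlation of group-centred values on 11 arrays had a median of 0.040 and ran from -0.54 for Flt1 with Kdr to 0.88 for Pecam1 with Kdr (Spearman rho = 0.89; r = 0.76 without the 2 arrays farthest from the median of Pecam1). In Pecam1 and in the brighter Kdr probe, CO replicates 1 and 3 were the lowest of the CO samples and HFD replicate 1 the lowest of all. The mean level over the members was between -0.79 and -0.59 in CO and between -0.68 and -0.49 in HFD, and CO replicate 4 held the highest CO value of 4 members. The SD was larger in CO for 7 of 12 probes, beside 61.4% of all probes.

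Among other genes with a role at the vessel wall or the barrier, 127 were tested in 7 lists, of which 26 were higher in HFD and 51 lower (60.6%, with a median difference of -0.13), which is close to the share over all genes. The lists go by role and the tissue was not sorted, so the signal of these genes cannot be assigned to vessel cells. On the scale of the spike-in probes the same genes gave 2 higher and 109 lower, so each rise below 0.67 in the following turns into a fall there. Of 18 partners of the junctions, 4 were higher and 6 lower, with a median of 0.08. The scaffold gene Tjp1 (ZO-1), which ties claudins and occludin to actin, was higher by 0.52 (adjusted p = 0.000435), Cgnl1, a protein of the junction plaque, by 0.76 (adjusted p = 0.000149), and Ctnnb1, the beta-catenin that binds cadherins, by 0.41 (adjusted p = 1.9e-05). Cgnl1 was dim, with a mean level of -6.97 in CO and -6.21 in HFD.

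Of 22 barrier transporters and receptors, 7 were higher and 11 lower, with a median of -0.17, beside 22.2% higher and 44.1% lower over all genes. Most genes of this list thus did not share the direction of Slco1a4 and Abcb1a, and neither did most genes tested. Tfrc, the transferrin receptor by which iron enters the brain, was higher by 1.81 (adjusted p = 1.5e-06), and its other probes by 1.19 to 1.32. Slc38a5, a carrier of glutamine, was lower by 0.85 (HFD minus CO -0.85, adjusted p = 7.1e-06). The efflux pump gene Abcc5 was at -0.71 (adjusted p = 3.1e-06) by its brightest probe, but its other probes lay between -0.35 and 0.10.

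Of 15 ligands and partners of the VEGF and angiopoietin receptors, 3 were higher and 5 lower. Angpt1, the ligand that activates Tek, was higher by 2.10 ± 0.24 (SE, adjusted p = 1.9e-05), while Angpt4, another Tek ligand, was at -1.31 (adjusted p = 7.7e-06), beside a Tek difference of -0.04 on this scale and -0.71 on that of the spike-in probes. Aplnr, the apelin receptor of sprouting vessels, was at -1.07 (adjusted p = 1.1e-05). Of 14 genes of the Wnt pathway that induces the barrier, 5 were higher and 6 lower, among them the ligand Wnt7b at -0.85 (adjusted p = 1.5e-07), its co-receptor Adgra2 (Gpr124) at -1.60 (adjusted p = 2.4e-07) and the Wnt inhibitor Apcdd1 at -2.07 (adjusted p = 8.2e-08). These 3, named for the smallest adjusted p of the list, separated the groups without overlap, as 48.0% of all probes did.

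Of 34 other genes of endothelial identity, 2 were higher, 13 lower and 19 past neither, with a median of -0.18, near the median of all genes. The nitric oxide synthase Nos3 was at -0.40 (adjusted p = 0.000639), the secreted factor Egfl7 at -0.35 (adjusted p = 0.000471) and Bsg, which other cells express too, at -0.73 (adjusted p = 1.0e-05). Of 19 genes of pericytes and PDGF, 4 were higher and 6 lower, and the 3 with the smallest p, Des at -0.77, Vtn at -0.71 and Mcam at -0.82, were lower. The 4 that were higher, as Pdgfrb was, are named although chosen after their values were seen: Atp13a5 at 0.71, Foxc1 at 0.45, Rgs5 at 0.41 and Abcc9 at 0.40. Of 7 genes by which leukocytes attach, 5 were lower and 1 higher, including Selp (P-selectin) at -1.35 and Madcam1 at -1.50, and Mcam is counted here as well. Selp and Des were dim, with mean levels of -5.28 and -5.52 in CO and -6.64 and -6.29 in HFD.

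**Figure D5:**
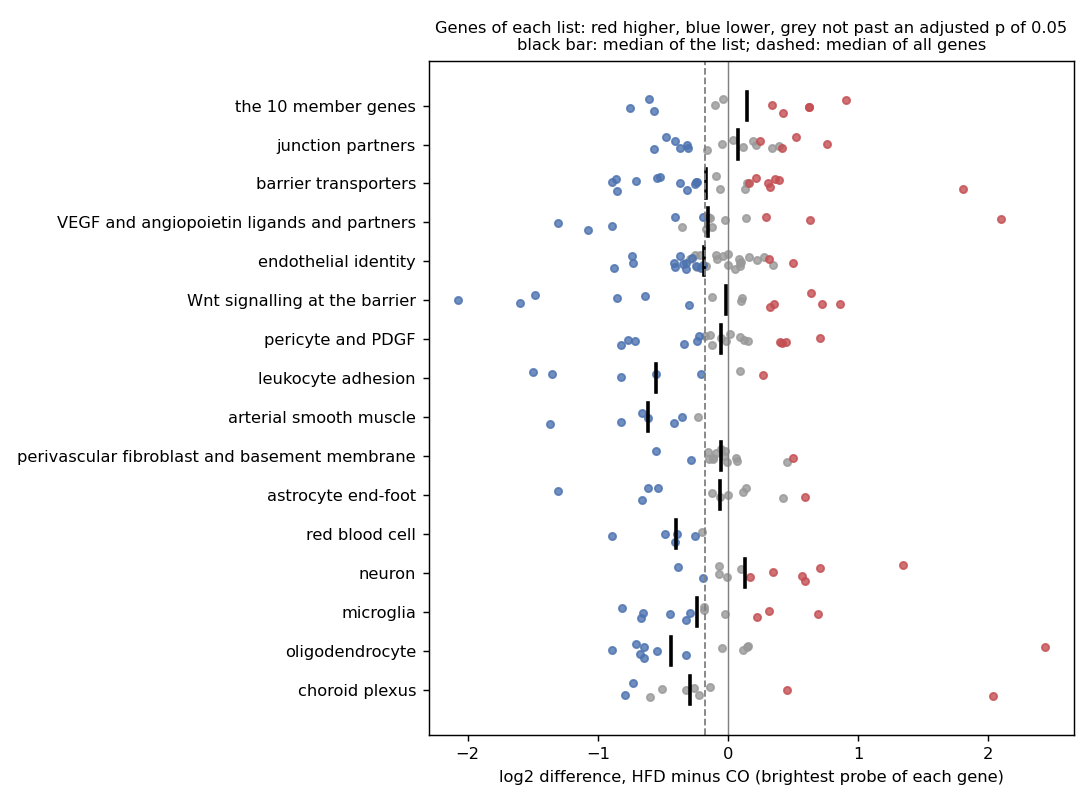
The log2 difference (HFD minus CO, horizontal axis) of each gene of the lists by its brightest probe, with higher calls in red, lower calls in blue and the rest in grey, the median of each list as a black bar and the median of all genes (-0.17) as a dashed line. The member genes have a median of 0.15, and the lists of leukocyte adhesion and arterial smooth muscle have medians of -0.55 and -0.61; on the scale of the spike-in probes all points shift by -0.67.

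Markers of other cells in or near the vessel wall were counted in the same fit, in which 66.4% of all genes passed, 22.2% as higher and 44.1% as lower, so that a list near these shares does not stand out. For arterial smooth muscle, 6 of 7 genes were lower (Acta2 at -1.37, Myh11 at -0.82 and Myl9 at -0.66), and their summed signal, in multiples of the array's 75th percentile, was 9.59 to 10.3 in CO and 5.66 to 7.25 in HFD. For red blood cells, 5 of 6 were lower (Hba-a1 at -0.89), with sums of 233 to 289 in CO and 184 to 229 in HFD. Of 15 genes of perivascular fibroblasts and basement membrane 1 was higher and 2 lower. Of 11 genes of astrocyte end-feet 1 was higher (Dtna at 0.59) and 4 were lower, among them Gfap at -1.31 and Dag1 at -0.62. The other 6, which include Aqp4 at 0.14, Kcnj10 at -0.12 and Gja1 at 0.42, passed in neither direction by their brightest probes. The other Aqp4 probe was at 0.87. Of 12 neuronal genes 6 were higher and 2 lower (sums 203 to 215 in CO, 229 to 248 in HFD), of 12 of microglia 3 and 6 (67.9 to 75.9, 75.6 to 88.3), of 12 of oligodendrocytes 1 and 7 (450 to 518, 402 to 490), and of 10 of choroid plexus 2 and 2 (77.8 to 106, 58.6 to 114). A sum weighs the brightest probes most. For microglia the brightest was that of Itgam, at 0.69, while the other Itgam probes lay between -1.67 and -0.43. The mean log2 level of the microglia list was 1.245 to 1.36 in CO and 0.966 to 1.30 in HFD. The part of these cell types in the differences of the members was not tested.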

How the data were processed

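Scanner output of 11 one-colour Agilent arrays was used. The authors deposited the intensity of each spot on a linear scale, background-subtracted by Feature Extraction (version 10.8 in the submitters' processing notes, 10.7.3.1 in the file headers); the normalization used by the study is not given in the sources used. Groups and replicate numbers came from the sample titles. Control spots and spots marked as outliers were left out, log2 of the processed intensity was taken minus each array's 75th percentile, and spots of a probe were averaged. Of 39429 mouse probes, 26369 were named through their accession in a RefSeq table (GRCm38.p6) and 13060 stayed unnamed. A probe was tested where at least 5 of 11 arrays showed it well above background.

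HFD and CO were compared by limma 3.58.1 in R 4.3.3 with two-sided tests, and p-values were adjusted (Benjamini-Hochberg) over the 31796 probes, or over the brightest probes of 17189 genes for counts of genes and for values in the lists, at 0.05. Values given for member probes are from the fit over probes. The same code was tested on simulated data. Pairs of members were compared by exact permutation in scipy 1.17.1. Further packages were statmod 1.5.0 (random block), data.table (version 1.17.8), numpy 2.4.6, pandas 2.3.3 and matplotlib 3.10.9.

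The members, lists and tests were chosen with earlier results of these data known. Named are all members, in each other list up to 3 genes with the smallest adjusted p among those well above background on all arrays, and the 8 genes whose group-centred values correlated best with the mean of the members. Alternatives were quantile, median, spike-in and reference-gene scaling, normexp (offset 50), no filter or a filter on all 11 arrays, blocks for slide (random) and for replicate number, leaving out each array, the Rank Product test of the methods (100 permutations, percentage of false positives under 0.001, as a share) and the mean over probes. Normexp used the median spot and background signals. The number of arrays limits the precision.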

Additional observations from a re-analysis of the deposited data

How the results depend on the processing

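The calls of the members kept their direction under quantile, median and reference-gene scaling, both other filters, the slide block (correlation -0.057), the leading number of the CO titles as a random block (0.037, added after the data were seen) and each array left out. Scaling to spike-in probes gave 0 higher and 7 lower member genes, 0 and 8 member probes and 2 and 109 other vascular genes. It turned the sign of Cdh5 (-0.045), Abcb1a (-0.049), Flt1 (-0.33), Pdgfrb (-0.25) and the dimmer Ocln probe (-0.50). Of these, Flt1 (limma, adjusted p = 0.0014 over genes), Pdgfrb (0.0484 over genes) and the dimmer Ocln probe passed as lower. The brighter Ocln probe (-0.77), Tek (-0.71) and the 10-spot Kdr probe (-0.81) became lower calls as well. The cause was not tested. The Rank Product test, which called 4.79% of all genes, called 0 member genes and 0 member probes in either direction, where limma called 5 and 3 also at an unadjusted p under 0.05, and 2 higher and 1 lower of the other vascular genes; Slco1a4 had the smallest value of the members (0.0267 over genes). Normexp, with 38.1% of genes called, left 1 lower member probe (Cldn5), 17 higher and 30 lower other vascular genes, and Ocln minus Cldn5 at 0.49 (adjusted p = 0.0961). Without 1 array, counts were 5 to 5 higher and 3 to 3 lower member genes, 5 to 6 and 3 to 3 member probes, and 21 to 26 and 48 to 54 other vascular genes, and the pairs gave 1.15 to 1.26 (Cdh5 minus Cldn5), 0.41 to 0.55 (Ocln minus Cldn5), -1.29 to -1.17 (Pecam1 minus Cdh5), 0.24 to 0.33 (Slco1a4 minus Abcb1a), 0.98 to 1.22 (Flt1 minus Kdr) and -0.25 to -0.13 (Pdgfrb minus Cdh5).

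Samples of the 2 groups share replicate numbers, but deviations of same-numbered samples correlated between -0.087 and 0.22, so the numbers were not taken to pair the samples. With the replicate block 5 member genes were higher and 3 lower, and of the other vascular genes 24 and 45. For the pairs of members, the block allows no p below 0.0625, so that the pairing gave 1.19, 0.51, -1.18, 0.26 and 1.08 in the order above, without Pdgfrb minus Cdh5, all no longer past the threshold.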

Other observations

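Among 15360 other genes well above background on all arrays, the 8 whose group-centred values followed the mean of the members most closely over the 11 arrays were Zfp449 (Pearson r = 0.91), Vwa5a (0.89), Ifnab (0.89), D3Ertd751e (0.89), St6galnac4 (0.89), Trim56 (0.88), Nktr (0.88) and Fgf7 (0.88). None of them is in the lists of vessel genes. Without the 2 arrays farthest from the median of the members' mean, r was 0.89 for Fgf7 and 0.88 for Vwa5a but 0.55 for Ifnab. In the comparison of HFD with CO, Zfp449 was higher by 1.05 and Fgf7, a growth factor of mesenchymal cells, by 0.78, while Vwa5a did not pass (-0.17, adjusted p = 0.0579). The likeness is a description of 11 arrays that share their scaling.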
